A study of Mus musculus with 4 samples.

Results

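The 9 genes described here are 5 STAT transcription factors (Stat3, Stat4, Stat5a, Stat5b and Stat6) and 4 feedback genes of the SOCS family (Socs1, Socs2, Socs3 and Cish). They were taken by symbol from a count table of 24061 genes, in which all 9 were present, and all 9 were among the 13022 genes with enough counts to be tested. The RNA came from mouse Peyer's patches, lymphoid tissue of the gut wall, and there from regulatory T cells of effector type, sorted as CD4+ and FoxP3+ cells without CD62L, about 40000 cells a sample, from C57BL/6 mice (N5 backcross) aged 13 weeks. By label, 2 libraries (wt 1 and wt 2) came from Maf+/+FoxP3-YFP-cre mice and 2 (flox 1 and flox 2) from Mafflox/floxFoxP3-YFP-cre mice, so that all 4 carried the Cre recombinase and yellow fluorescent reporter at Foxp3, a gene of regulatory T cells, and flox alleles are removed where that Cre acts. The question of the study was what loss of the transcription factor c-Maf, the product of Maf, does to gene expression in such cells. Whether libraries with the same label are from different animals is not stated in the labels, and the spread that the p-values rest on may thus be technical.

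Maf went against 2 of the labels. It stood at 149 CPM (counts scaled to a common library size) in the library labelled wt 1 and 122 in the library labelled flox 1, but at 1.98 in the library labelled wt 2 and 0.726 in the library labelled flox 2. The members were therefore compared in 2 ways: both libraries numbered 1 in their titles against both numbered 2, and labelled flox against labelled wt. A separate replicate field of the sample records follows the label instead (1 in the wt records, 2 in the flox records), at odds with the title numbers, and was not used; whether a title number or a genotype label was exchanged cannot be told. The split by number was chosen with these Maf values known, so Maf is not tested in it, and a direction by number is one between the libraries numbered 1 and 2, not between genotypes. The values of the authors' filtered and normalized table are those that edgeR gives when the libraries are grouped by number. Gene totals ran from 19368745 to 24687897 counts a library, and values below are in the order wt 1, flox 1, wt 2, flox 2, by label.

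STAT proteins wait in the cytoplasm until a cytokine receptor activates its bound Janus kinases, which phosphorylate the receptor and then the STAT. The phosphorylated STAT pairs up, enters the nucleus and binds sites that for most STATs have the form TTCNNNGAA. Among the genes it turns on are those of the SOCS family, whose proteins bind the receptors or kinases and damp the same signal, so that SOCS transcripts are commonly read as a trace of recent STAT activity (IL stands for interleukin below). In regulatory T cells IL-2 acts through STAT5 to maintain Foxp3, and STAT3 is needed for the cells that restrain type 17 responses.

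Of the 8 members with an entry in the RefSeq promoter table (GRCm38.p6, 300 bases from 250 before to 50 after the start, 11 windows in all), 2 held the STAT motif TTCNNNGAA, which reads the same on both strands. These were Cish with 2 copies and Socs3 with 1. Of 32851 promoters of that length, 8.3% held at least 1 copy and 0.457% held 2 or more. The related motif with 1 more N in its middle, likewise the same on both strands, was in none of the 11 member windows and in 6.95% of all promoters. Both windows are shown, up to 30 bases after the start, because these 2 feedback genes carry the site and differ in pattern across the libraries, as given below. Capitals mark TTCNNNGAA, and both are written in the direction of transcription.
Cish (chr9:107296409-107296688, plus strand): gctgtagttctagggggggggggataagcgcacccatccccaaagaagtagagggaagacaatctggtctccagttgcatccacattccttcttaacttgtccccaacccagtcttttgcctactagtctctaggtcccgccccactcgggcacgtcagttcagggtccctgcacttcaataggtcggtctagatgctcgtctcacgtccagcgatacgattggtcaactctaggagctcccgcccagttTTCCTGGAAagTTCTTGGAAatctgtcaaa
Socs3 (chr11:117969337-117969616, minus strand): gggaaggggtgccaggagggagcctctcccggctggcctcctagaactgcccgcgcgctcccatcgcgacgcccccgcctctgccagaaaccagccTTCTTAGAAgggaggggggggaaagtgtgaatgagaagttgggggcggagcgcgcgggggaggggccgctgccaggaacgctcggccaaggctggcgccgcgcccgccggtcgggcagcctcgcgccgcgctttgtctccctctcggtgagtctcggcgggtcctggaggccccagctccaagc
The copies in Cish, TTCCTGGAA and TTCTTGGAA, run from base 1 to 9 and from base 12 to 20 counted from the RefSeq start, 2 bases apart. The copy in Socs3, TTCTTAGAA, runs from base -154 to -146. A match is a description of these letters and no sign of binding.

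In the mm10 build (GENCODE M21) Stat5b (chr11:100780731-100850724, minus strand), Stat5a (chr11:100859351-100885169, plus) and Stat3 (chr11:100885098-100939540, minus) lie side by side, and the 3' ends of Stat5a and Stat3 share 72 exon bases. Stat4 lies at chr1:51987148-52107189 (plus) and Stat6 at chr10:127642986-127660957 (plus). Of the feedback genes, Socs1 lies at chr16:10782240-10785536 (minus), Socs2 at chr10:95385362-95417180 (minus), Socs3 at chr11:117966079-117970047 (minus) and Cish at chr9:107296026-107302784 (plus).

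Levels were compared between genes as CPM per kilobase of exon (union of GENCODE M21 exons), which depends on the annotated length and on which isoforms the cells make. Over the 4 libraries Socs3 was highest, at 131.4 ± 20.4 CPM per kilobase (SD, n = 4), followed by Stat6 at 96.7 ± 3.46. Stat5b at 84.6 ± 6.97 and Stat4 at 81.6 ± 8.34 came next, and Stat3 at 68.4 ± 2.45, Socs1 at 61.3 ± 11.5 and Cish at 44.5 ± 10.0 after them. Stat5a followed at 22.42 ± 1.501, and Socs2 was lowest at 5.91 ± 0.942. Adjacent genes in this order had ranges that overlapped for Stat5b with Stat4, Stat3 with Socs1, and Socs1 with Cish, and separate ranges elsewhere. The SDs of Socs1, Socs3 and Cish were the largest of the 9, and those of the 5 STAT factors lay below them. These SDs are not scaled to level. As a ratio of highest to lowest library, Socs2 (1.44) was close to Socs1 (1.45) and above Socs3 (1.36). The largest such ratio of a STAT factor was 1.23, in Stat4.

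By number, 0 of the 9 members passed edgeR's quasi-likelihood test with Benjamini-Hochberg adjustment over all genes (adjusted p under 0.05), against 1.81% of all genes (236 of 13022). At an unadjusted p under 0.05 there were 3 members, Stat4, Socs2 and Socs3, all 3 with higher values in the libraries numbered 1, against 13.6% of all genes (8.12% higher and 5.45% lower). The likelihood ratio and exact tests of edgeR and limma-voom also called 0, and DESeq2 called 1, Socs3. Over all 13022 genes these tests called, in that order, 608, 623, 201 and 640. The median log2 fold change of numbered 1 over numbered 2 was 0.15 over the members and -0.01 over all genes, and the median size without sign was 0.19 and 0.18. The libraries of the 2 numbers did not overlap for 7 members, 6 higher and 1 lower in the libraries numbered 1, where 45.2% of all genes were separate, 22.5% higher and 22.7% lower. Without the library labelled flox 2, in which heat shock transcripts were high (given below), the members called were again 0, with 7 separate and higher and 1 separate and lower, and 75.2% of all genes then separate in either direction. No permutation test of single genes was run, since the smallest two-sided p that an exact one can give with 2 libraries a side is 0.333.

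**Figure D1:**
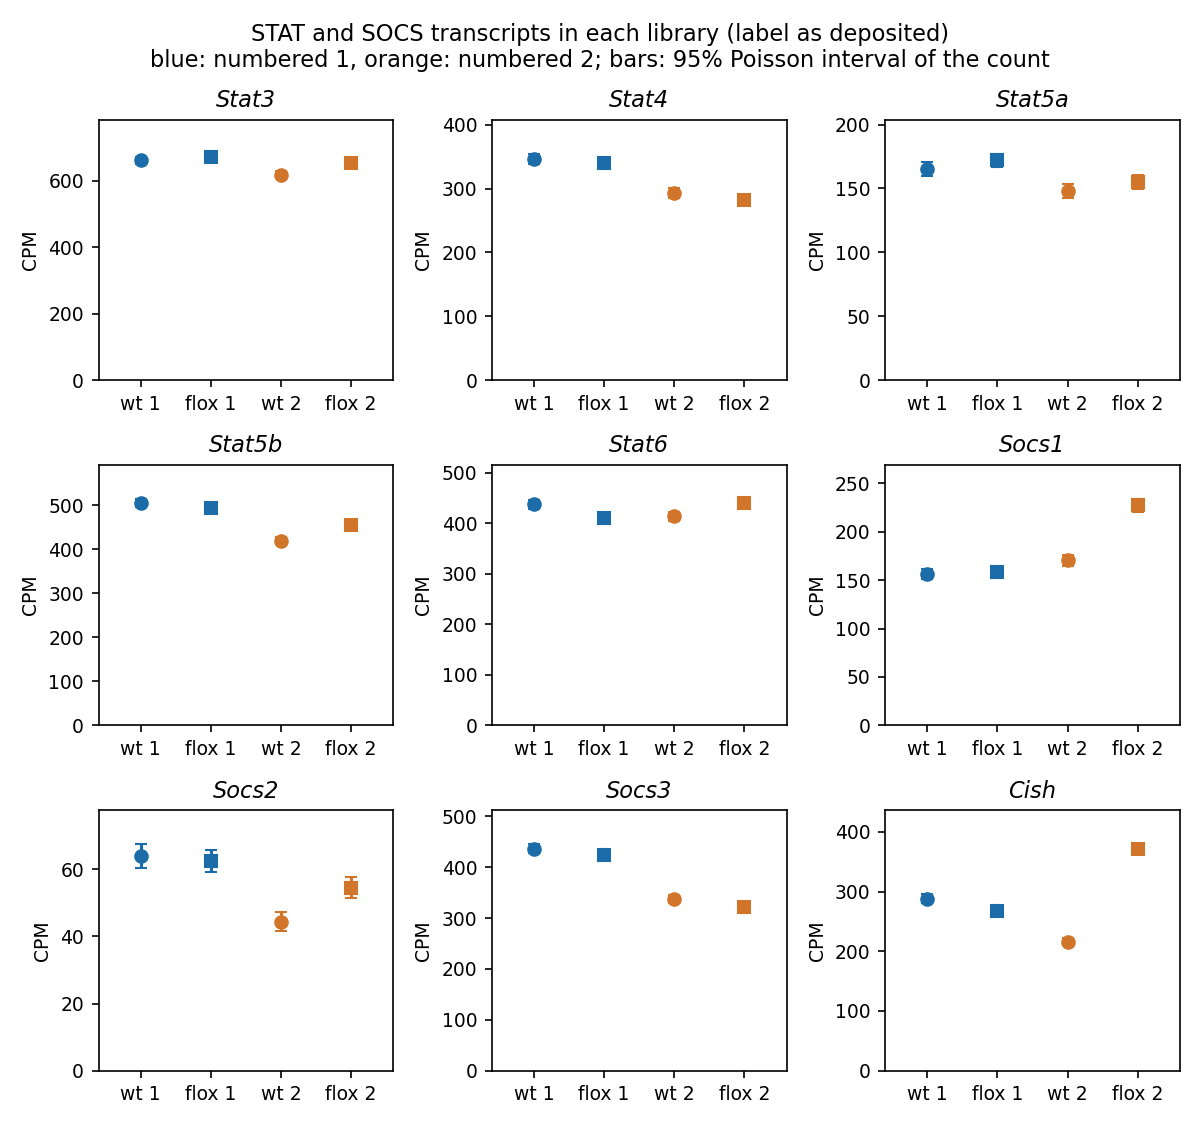
Level of each member (vertical axis, CPM from 0) in the 4 libraries (horizontal axis, named by label and number); blue points are numbered 1, orange points numbered 2, circles labelled wt, squares labelled flox, and bars the 95% Poisson interval of the count. Socs3 and Stat4 are higher in both blue libraries, Socs1 and Cish are highest in the library labelled flox 2, and Stat6 hardly varies (411 to 439 CPM).

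Stat3 carries the signals of IL-6, IL-10, IL-21 and IL-23. It had 662, 672, 619 and 655 CPM, so that the libraries numbered 1 were just above those numbered 2. Numbered 1 over numbered 2 gave a log2 fold change of 0.07 (SE 0.07, adjusted p = 0.778 by edgeR's quasi-likelihood test), and its 95% interval spans a ratio of 0.925 to 1.19.

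Stat4 carries the IL-12 signal in type 1 cells. It had 347, 340, 293 and 283 CPM. Both libraries numbered 1 lay above both numbered 2, and libraries of the same number lay close together. The means were 343.4 ± 4.77 and 288.2 ± 7.47 (SD, n = 2), a log2 fold change of 0.25 (SE 0.08) with an adjusted p of 0.217 by edgeR's quasi-likelihood test, above the threshold. In the GENCODE annotation 26.7% of its exon bases are shared with Gm28177 on the same strand, which has no row of its own in the count table, so reads of that transcript may be included.

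Stat5a and Stat5b, which carry the IL-2 signal, lie on chromosome 11 next to Stat3, and their longest open reading frames are identical at 90.7% of 2294 aligned bases, with a longest identical run of 324 bases. Reads from such stretches cannot be placed on 1 gene, so the split between both is uncertain. Stat5a had 165, 172, 148 and 155 CPM, and Stat5b had 505, 494, 420 and 456. For both genes the libraries numbered 1 lay above those numbered 2. The log2 fold changes were 0.15 (SE 0.08) for Stat5a and 0.19 (SE 0.08) for Stat5b, with adjusted p of 0.498 and 0.380 by edgeR's quasi-likelihood test. With the counts of both genes summed the log2 fold change was 0.18 (adjusted p = 0.382).

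Stat6, which carries the IL-4 and IL-13 signals of type 2 cells, had the smallest ratio of highest to lowest library among the members (1.069, against 1.087 for Stat3). It had 438, 411, 414 and 439 CPM, so that each number and each label held 1 higher and 1 lower library. The log2 fold change by number was -0.01 (SE 0.08, edgeR adjusted p = 0.983), with a 95% interval of the ratio from 0.869 to 1.14. Its sign turned to 0.04 without the library labelled flox 1 and to 0.03 without flox 2.

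Among the feedback genes, Socs3 differed most evenly by number. The SOCS3 protein binds the gp130 receptor chain and limits STAT3 signals of IL-6 and IL-23. Socs3 had 436, 425, 338 and 321 CPM. Both libraries numbered 1 were above both numbered 2, with means of 430.5 ± 7.94 and 329.3 ± 12.0 CPM (SD, n = 2). The log2 fold change was 0.39 (SE 0.08), a ratio of 1.31 with a 95% interval of 1.148 to 1.488, and the adjusted p was 0.0801 by edgeR's quasi-likelihood test. By unadjusted p it ranked 336 among the 13022 genes. DESeq2 called Socs3 (adjusted p = 0.0017), as did the quasi-likelihood test with no filter on low counts (0.0172) and without the library labelled wt 2 (0.042). Over all 16 alternatives the adjusted p ran from 0.0017 to 0.49.

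Socs2, which acts mainly on growth hormone receptor signals and is a STAT5 target, was the lowest member. It had 63.9, 62.4, 44.4 and 54.5 CPM, higher in both libraries numbered 1. The log2 fold change was 0.35 (SE 0.13, edgeR adjusted p = 0.306) and was 0.51 without the library labelled flox 2 and 0.21 without wt 2.

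Socs1, whose protein blocks Janus kinases and restrains interferon and IL-2 signals, went the other way. It had 157, 159, 171 and 227 CPM. The library labelled flox 2 stood above the other 3, which lay close together. By number its log2 fold change was -0.34 (SE 0.14, adjusted p = 0.377 by edgeR's quasi-likelihood test). It was -0.12 without the library labelled flox 2 (adjusted p = 0.623). Without the library labelled wt 2 it was -0.53 and passed the test (adjusted p = 0.0204), with the library labelled flox 2 then the single library numbered 2 and assumed to vary like the others.

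Cish, which encodes the CIS protein, a STAT5-induced inhibitor of cytokine and T cell receptor signals, had the widest range of the members. It had 288, 267, 216 and 371 CPM, so that both the lowest and the highest library were numbered 2. The ratio of highest to lowest library was 1.72. By number its log2 fold change was -0.08 (SE 0.27, edgeR adjusted p = 0.946), with a 95% interval of the ratio from 0.566 to 1.58, the widest among the members. Without the library labelled flox 2 it was 0.36 (adjusted p = 0.103), and without wt 2 it was -0.42 (adjusted p = 0.0509). The exons of Cish overlap 2 genes on the other strand, Gm17041 and Gm17040, at 7.46% and 4.07% of its exon bases. Neither has a row in the count table, and the use of strand is not given in the sources used here.

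**Figure D2:**
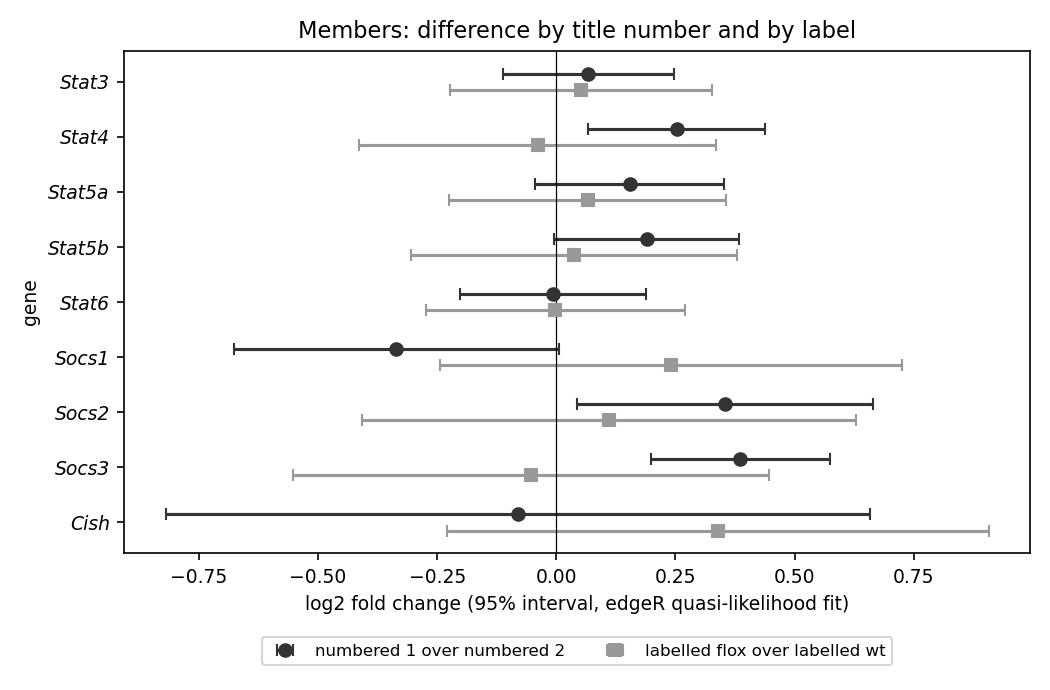
Log2 fold change of each member (horizontal axis) with its 95% interval from edgeR's quasi-likelihood fit, for numbered 1 over numbered 2 (dark circles) and labelled flox over labelled wt (grey squares); genes are on the vertical axis. By number the interval of Socs3 lies above 0 (0.20 to 0.57), as do those of Stat4 and Socs2, before adjustment over all genes, and every interval by label spans 0.

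Each number holds 1 library of each label, so the ratio of number 1 to number 2 can be read separately in both labels, with intervals (95%) that cover counting error only. Socs3 had a ratio of 1.29 within labelled wt (1.25 to 1.33) and 1.32 within labelled flox (1.28 to 1.37), and Stat4 had 1.18 (1.14 to 1.22) and 1.20 (1.16 to 1.24). These 2 genes, with Stat5a at 1.12 and 1.11, had nearly the same ratio in both labels. The ratio of Socs2 was 1.44 within wt (1.32 to 1.57) and 1.145 within flox (1.06 to 1.24), and that of Stat5b 1.20 (1.17 to 1.24) and 1.08 (1.05 to 1.11). Socs1 was below 1 in both labels, at 0.917 (0.874 to 0.963) and 0.699 (0.670 to 0.729). Cish was at 1.33 within wt (1.28 to 1.39) and 0.719 within flox (0.696 to 0.744). The ratios of Cish thus lay on opposite sides of 1.

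**Figure D3:**
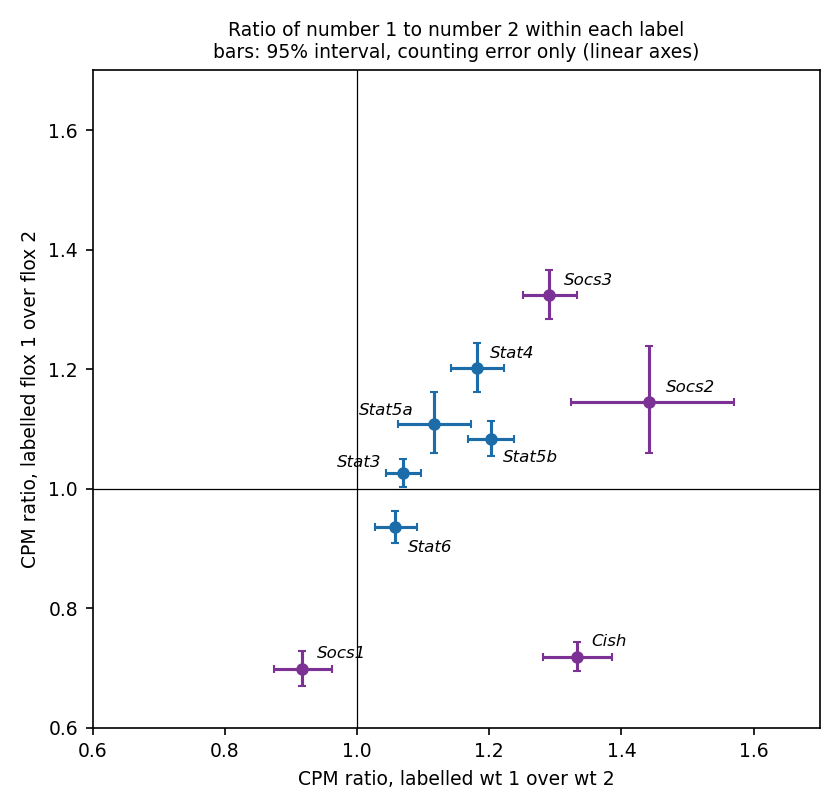
CPM ratio of the library numbered 1 to the library numbered 2 for each member within labelled wt (horizontal axis) and within labelled flox (vertical axis), both linear; STAT genes are blue, SOCS genes purple, and bars are 95% intervals of counting error. Socs3 and Stat4 lie close to equal ratios, Socs1 lies below 1 on both axes, and Cish lies above 1 in wt (1.33) and below 1 in flox (0.719).

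The library labelled flox 2, highest for Socs1 and Cish, also stood apart in heat shock transcripts. The summed level of 10 heat shock genes was 4513, 5076, 4496 and 12090 CPM. Of the markers of other cells, the summed levels in the libraries numbered 1 and numbered 2 were 49.0 to 91.1 and 49.7 to 58.4 CPM for 8 B cell genes, 8.61 to 86.2 and 51.4 to 53.2 for 6 myeloid genes, 142.9 to 328.7 and 251.5 to 331.5 for 7 epithelial genes and 75.5 to 80.7 and 67.1 to 86.3 for 5 stromal and endothelial genes. Sums that did not overlap between the numbers were those of 5 CD8 T and natural killer cell genes, 43.9 to 49.2 CPM in numbered 1 and 67.6 to 89.9 in numbered 2, and of 3 naive T cell genes, 1944 to 2309 and 1532 to 1885. The former gap came mostly from Klrb1c, at 22.6, 21.3, 44.9 and 68.5 CPM, while Cd8a and Cd8b1 overlapped between the numbers. The naive T cell genes differed among themselves. Tcf7 was higher in both libraries numbered 1 (841.3, 708.5, 624.9 and 460.7 CPM), Ccr7 overlapped, and Lef1 was lower in both (192.4, 182.5, 199.9 and 212.8). None of these markers was at 0 in all 4 libraries. The library labelled wt 1 had the lowest myeloid sum, 8.61 CPM against 51.4 to 86.2 in the others. It also had the lowest epithelial sum, 142.9 against 251.5 to 331.5. The part of any of these lists, heat shock transcripts included, in the member values was not tested. Cd4 and Foxp3, whose products the cells were sorted for, and the T cell gene Cd3e were present in every library, with Foxp3 at 93.8, 91.0, 103.5 and 103.6 CPM. The summed level of 6 regulatory T cell genes was higher in the libraries numbered 1 (6203 to 6433 CPM) than in those numbered 2 (4655 to 5155). Of the 6, only Ctla4, an inhibitory receptor gene, was itself higher in both libraries numbered 1, at 3342, 3344, 1627 and 2080 CPM. Foxp3 and Il2ra were lower in both, and Cd3e, Cd4 and Ikzf2 overlapped between the numbers. In bulk RNA, fewer cells of a type and less RNA per cell cannot be told apart.

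By label, 0 of the 9 members passed edgeR's quasi-likelihood test (adjusted p = 0.9998 for each), 0 had an unadjusted p under 0.05 and 0 had separate libraries, against 1 gene of 13022 called (0.00768%), 1.98% at that unadjusted p and 27% separate. DESeq2, the likelihood ratio and exact tests of edgeR and limma-voom called 0 members as well. The largest difference was in Cish, with 252.1 ± 50.9 CPM in labelled wt and 318.9 ± 73.6 in labelled flox (SD, n = 2), a log2 fold change of 0.34 (SE 0.22). Socs1 had 163.6 ± 9.98 and 193.2 ± 48.5 CPM (0.24, SE 0.19). For Socs3 the label means were 386.9 ± 69.5 and 372.9 ± 73.5 CPM (log2 fold change -0.05, SE 0.20), where the spread within a label holds the difference by number. The 95% intervals by label were widest for Cish, a ratio of 0.853 to 1.88, and for Stat6 ran from 0.827 to 1.21. Since Maf went against 2 labels, these are differences between labels only.

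The other genes of the pathway were read from lists of STAT, SOCS, kinase, inhibitor, receptor and ligand genes (61 genes beside the members, 49 of them tested). Of these, 5 passed edgeR's quasi-likelihood test by number, all higher in the libraries numbered 1, against 1.41% of all genes called in that direction, and 0 were lower, against 0.399%. They were Jak2, Il23r, Ifngr2, Il10 and Il21. Jak2, the kinase bound to the receptors of IL-12 and IL-23 and of interferon gamma, had 550, 558, 309 and 290 CPM. Its log2 fold change was 0.89 (SE 0.08, adjusted p = 0.00647 by edgeR), the 2 numbers being well apart and libraries of 1 number close together. The other 3 kinases, Jak1, Jak3 and Tyk2, did not pass, with log2 fold changes from -0.12 to -0.02. Without the library labelled wt 1 the Jak2 call was lost (adjusted p = 0.0649, log2 fold change 0.89), and 1 of the 5, Il10, was still called. Without flox 2 more pathway genes were called, not all of them higher, and more of all genes were called as well.

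Receptor chains of the gp130 and IL-12 family were separate and higher in the libraries numbered 1 for all 7 tested members, where 22.5% of all genes were. Their log2 fold changes ran from 0.41 to 3.59, with a median of 0.84 (-0.01 over all genes), and 1 passed the test. This was Il23r, a receptor chain for IL-23, with 8.41, 9.46, 1.09 and 0.387 CPM (log2 fold change 3.59, SE 0.51, edgeR adjusted p = 0.027). Its call was lost without the library labelled wt 1 (adjusted p = 0.114) or flox 1 (0.0804). Among receptor chains for IL-10 and interferons, 1 of 6 passed, Ifngr2, with 96.3, 81.7, 40.4 and 46.0 CPM (log2 fold change 1.04, SE 0.13, adjusted p = 0.017 by edgeR, and 0.121 without wt 1). Of the common gamma chain family 0 of 8 passed by edgeR. At an unadjusted p under 0.05 there were 2, both with lower values in the libraries numbered 1, against 5.45% of all genes. These were the gamma chain Il2rg at 1339, 1279, 1479 and 1520 CPM and the IL-2 receptor chain Il2ra at 454, 401, 503 and 510. DESeq2 called 10 pathway genes in all, each of them higher, where it called 640 of all 13022 genes, 451 of them higher.

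Of the 20 cytokine ligands 9 were tested, and 2 passed. Il10, whose product restrains inflammation, was at 429, 385, 24.5 and 26.8 CPM (log2 fold change 3.99, SE 0.11, edgeR adjusted p = 6.94e-05), and Il21, which signals through STAT3, had 19.0, 14.5, 0.346 and 0.967 (4.65, SE 0.46, adjusted p = 0.00875 by edgeR, and 0.063 without wt 1). Both ligands were far apart between the numbers. Il2, the main activator of STAT5, had 4, 2, 5 and 14 counts and was too low to test.

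The remaining lists of the pathway had 0 called members by edgeR. Stat2, which carries type I interferon signals, had 84.3, 96.5, 107 and 104 CPM, lower in both libraries numbered 1 (unadjusted p = 0.0651 by edgeR). Among the 4 other SOCS genes, Socs4 had 30.6, 30.6, 23.1 and 27.2 CPM and Socs6 had 42.5, 38.0, 38.1 and 29.8, and 0 had an unadjusted p under 0.05. Of 10 other negative regulators, 2 had an unadjusted p under 0.05, close to the 13.6% of all genes: Pias3, which encodes an inhibitor of STAT3, at 29.999, 32.6, 25.6 and 24.1 CPM, and the phosphatase gene Ptpn11 at 56.0, 58.1, 49.1 and 46.0. Both had higher values in the libraries numbered 1.

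**Figure D4:**
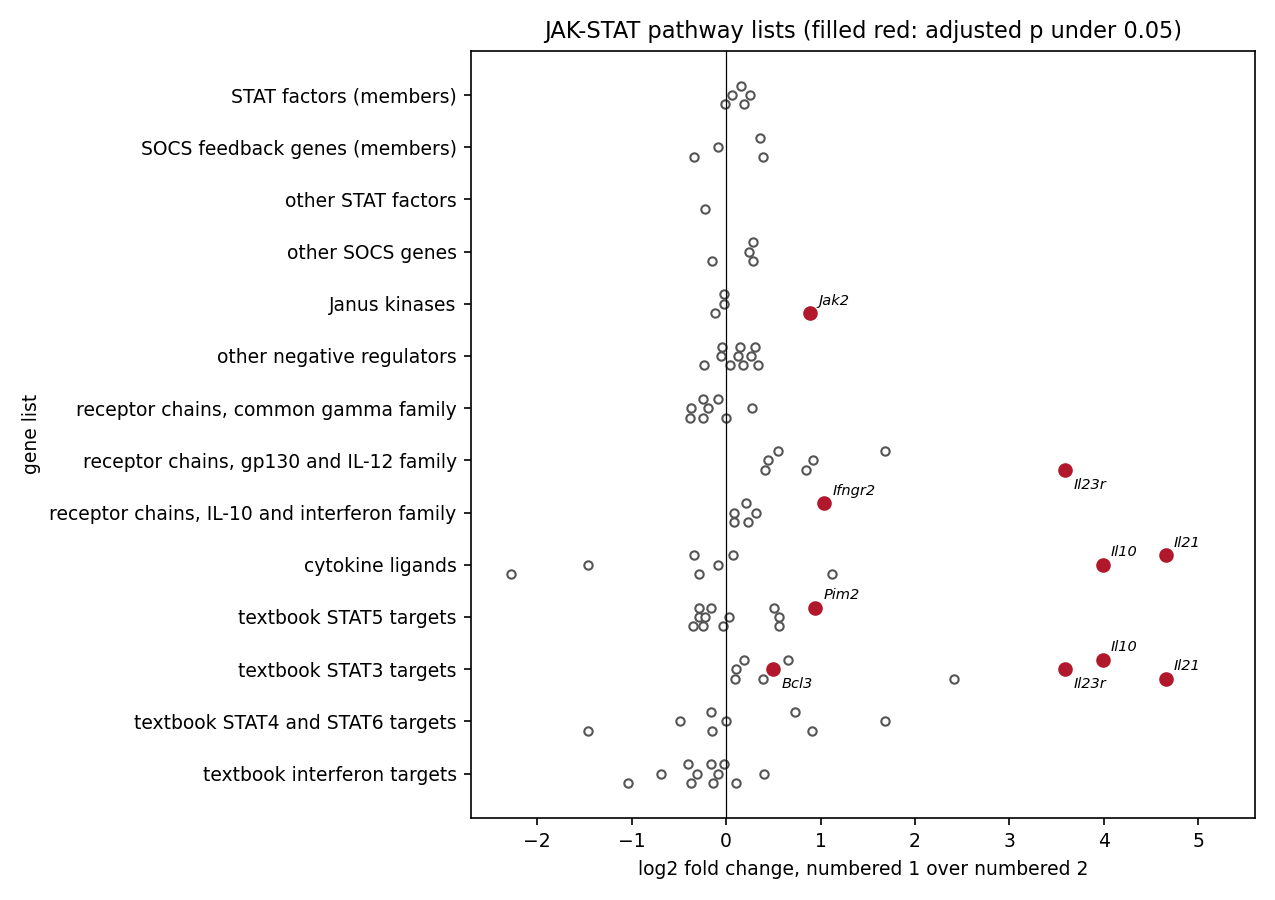
Log2 fold change of numbered 1 over numbered 2 (horizontal axis) for the tested genes of each list (vertical axis; points are spread vertically for legibility only); filled red points passed edgeR's quasi-likelihood test and are named. The members lie between -0.34 and 0.39, while Il10 and Il21 lie at 3.99 and 4.65, and the call of Bcl3 was lost with no scaling factor.

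Genes that textbooks give as targets of each STAT were listed separately (42 genes, 41 tested, some of them ligands or receptors given above). Of 10 tested STAT3 targets, 4 passed edgeR's quasi-likelihood test by number, all higher in the libraries numbered 1, where 1.41% of all genes were called higher: Il10, Il21, Il23r and Bcl3. Bcl3, an NF-kB cofactor gene that was named once its values were known, had 199.6, 201.8, 142.4 and 142 CPM (log2 fold change 0.50, SE 0.08, edgeR adjusted p = 0.0375). That call was lost with the label as a term (adjusted p = 0.0745), with no scaling factor (0.0523), without robust fitting (0.0527) and without the library labelled wt 1 (0.266) or flox 1 (0.208). The median of the list was 0.58. Of 12 STAT5 targets 1 passed, the kinase gene Pim2, with 109.7, 105, 53.5 and 58.0 CPM (log2 fold change 0.94, SE 0.10, adjusted p = 0.00875 by edgeR, and 0.0963 without wt 1), and the list median was -0.10. At an unadjusted p under 0.05 the STAT5 targets were split, with 4 higher, Pim2 among them, and 4 lower, against 8.12% and 5.45% of all genes. Fewer targets were called without the library labelled wt 1 or flox 1 than the 5 with all libraries, and more without wt 2 or flox 2. The number of all genes called fell and rose in the same fits.

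By edgeR, 0 of 8 STAT4 and STAT6 targets and 0 of 11 interferon targets passed, against 1.81% of all genes. At an unadjusted p under 0.05 there were 2 STAT4 and STAT6 targets, both higher in the libraries numbered 1, against 8.12% of all genes. There were also 3 interferon targets, all lower in the libraries numbered 1, against 5.45%. The log2 fold changes of the former list ran both ways, from -1.47 to 1.69, with a median of -0.07. The median of the latter was -0.16. In the former, Il18r1 had 26.9, 33.3, 19.8 and 16.4 CPM and Il12rb2 had 1.90, 4.26, 1.09 and 0.822. In the latter, Gbp2, an interferon-induced GTPase gene, had 110.6, 96.8, 135.5 and 138.9 CPM and Psmb9, an immunoproteasome subunit gene, had 94.4, 100.7, 131.4 and 121.5. In both Gbp2 and Psmb9 the libraries numbered 1 were below those numbered 2. The lists were chosen with earlier results of these libraries known, and several genes of the STAT3 list are also genes of type 17 and follicular cells.

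The genes closest in pattern to 3 feedback genes were sought among 8401 protein-coding genes, by the root mean square difference of centred log2 CPM. It was taken over the same 4 libraries, so all genes share the depth and sort of each library. Nearest to Socs3 were Nmnat3 (0.01), Slc25a51 (0.01) and Zmym5 (0.02). Nearest to Socs1 were Mov10 (0.01), Gbp6 (0.02) and Zdhhc13 (0.03). Being chosen for likeness to Socs1, these are by that choice highest in the library labelled flox 2. Nearest to Cish were Spryd4 (0.03), Epas1 (0.05) and Marf1 (0.05). With 4 libraries such likeness is a description of these samples.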

How the data were processed

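RNA of 4 libraries (2 groups of 2 by label) was sequenced from sorted cells. The deposited counts are whole reads per gene made by the authors; per the submitters' processing notes the tools were TopHat2 2.1.1, HTSeq 0.6.1 and edgeR 3.14 with build mm10, and strand use and annotation were not given in the sources used here. A second deposited table holds the authors' filtered and normalized signal, 10618 genes, whose values equal edgeR pseudo-counts grouped by title number (tolerance 1e-06) for 100% of 42472 values, against 3.247% grouped by label. It was used for that check alone.

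The 5 summary rows, 66.6% to 67.18% of each column, and 27 rows whose symbols had become dates were not named, and the former stayed out of library sizes. Genes were filtered with filterByExpr, scaled by TMM and fitted with edgeR 4.0.16 (R 4.3.3, robust quasi-likelihood, Benjamini-Hochberg, threshold 0.05) on all 4 libraries, once by title number and once by label. CPM use TMM library sizes. The biological coefficient of variation was 0.1937 by number and 0.2727 by label. Alternatives were DESeq2 1.42.0, limma 3.58.1 (voom), other edgeR tests, scalings and filters, Stat5a and Stat5b summed, the other grouping as a term, and each library left out. The scripts were tested on simulated data. A count of 0 allows up to 3 counts, 0.123 to 0.148 CPM. Intervals on counts (95%) are exact Poisson or binomial ones and cover counting error only, since no molecular identifiers are stated.

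The members and lists were chosen with earlier results of these data known. Named genes were all members, Maf, up to 4 called genes a list or otherwise the 2 with the smallest p, and for Socs1, Socs3 and Cish the 3 nearest patterns among genes of mean log2 CPM of at least 3. Some listed genes are not reported here and were left out of the lists and their counts, though not out of the fit.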

Additional observations from a re-analysis of the deposited data

Results flagged for a closer look

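Within labelled wt the library numbered 1 had more Cish than the library numbered 2 (ratio 1.333), and within labelled flox it had less (ratio 0.7193). Stat6 did likewise, with ratios of 1.058 and 0.9352. In both genes the counting intervals lie on opposite sides of 1, each ratio rests on 1 library a side, and the difference between labels was not tested. The library labelled flox 2 was the highest for Cish. For Stat6 it was level with the library labelled wt 1 within counting error (439 and 438 CPM). The library labelled flox 2 also had the highest heat shock sum, 12090 CPM against 4496 to 5076 in the other libraries, and its part in these ratios was not tested.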

How the results depend on the processing

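With 2 libraries a group, 1 library decided several values. Of 143 alternative values of the members by number, 136 kept their direction and side of the threshold, 4 passed it (Socs3 under DESeq2, with no filter and without wt 2, and Socs1 without wt 2) and 3 changed sign. By label, 127 of 143 were kept, 0 passed and 16 changed sign. Where no cause is given, the cause was not tested.

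By number, the 236 genes called became 640 with DESeq2, 608 with the likelihood ratio test, 623 with the exact test, 589 with no filter (18575 genes tested), and 46 to 525 when each library was left out. Members called (0) were 1 with DESeq2, 1 with no filter, and 0 to 2 when each library was left out. The sign changed when a library was left out for Stat6 (-0.0561 to 0.0412) and Cish (-0.42 to 0.36).

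By label, the 1 gene called became 12 with DESeq2, 12 with the likelihood ratio test, 6 with the exact test, 0 with limma-voom, 2 with no filter, and 0 when any library was left out. The log2 fold change of Stat6 (-0.002) was 0.002 with RLE factors, 0.0103 with upper quartile scaling, 0.0019 with DESeq2 and 0.0024 with no filter. Left-out libraries gave -0.0494 to 0.0477 for Stat6, -0.1764 to 0.0888 for Stat4, -0.0093 to 0.1462 for Stat5a, -0.0845 to 0.1751 for Stat5b, -0.0399 to 0.478 for Socs1, -0.12 to 0.40 for Socs2 and -0.27 to 0.14 for Socs3. With the title number as a replicate block, 1 gene was called by label, 515 had an unadjusted p under 0.05, and 0 members were called. No label says what a shared title number marks. Deviations of same-numbered libraries from their label means correlated at r = 0.264, a single value because the pairs mirror each other.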
